A study of Rattus norvegicus with 35 samples.

Results

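Lungs of p53-heterozygous rats given the carbon nanotube Mitsui-7 were compared with lungs of p53-heterozygous rats given the carbon nanotube NM-403, at the same labelled dose. The arrays were chosen by their titles: 6 from the Mitsui-7 group and 5 from the NM-403 group, so 11 of the 35 arrays of the study. All rats were female Sprague Dawley, 12 weeks old when instillation began, and heterozygous for p53 (the genotype that the labels call GMO). Mitsui-7 or NM-403 was instilled into the trachea weekly for 4 weeks at 0.25 mg per rat, a figure the labels do not assign to each instillation or to the total. The accessory lobe of the lung was taken on day 3 after exposure, and each array held the RNA of 1 rat. Beside these 11 arrays the text uses 6 p53-heterozygous vehicle controls of the same strain, sex and age, and the wild-type (WT) rats: 6 given Mitsui-7, 6 given NM-403 and 6 controls. The labels do not say how the p53 allele was altered or whether the rats of a group were littermates. The p-values set a difference against the spread between rats of the same group, estimated over all 35 arrays. They do not allow for shared litters.

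Mitsui-7 and NM-403 are both multi-walled carbon nanotubes. Mitsui-7 is long, thick and straight, and NM-403 is short and thin. In lung, durable fibres are taken up by alveolar macrophages, which digest poorly what they cannot enclose, and the injured airway and alveolar epithelium answers with mucus, with matrix-degrading proteases and with chemokines that call in blood leukocytes. p53 is the transcription factor that halts the cycle of cells with damaged DNA, in part through Cdkn1a.

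Levels are log2 processed signals relative to the 75th percentile of the same array, so a level of 0 lies at that percentile. A difference is a log2 difference, Mitsui-7 minus NM-403, with limma's standard error, from a model of all 35 arrays with slide as a block. Because of the block it need not equal the difference of the plain means. A gene was called where limma's adjusted p (Benjamini-Hochberg over 24476 genes) was under 0.05. Surfactant genes Sftpc and Sftpb, club cell Scgb1a1 and type 1 cell Ager were well above background on all 35 arrays. Of non-control spots, 66.1% to 86.4% per array were well above background. The vehicle array p53-heterozygous control replicate 6 and the array WT Mitsui-7 replicate 5 stood apart, with a residual SD of 0.636 and 0.519 against 0.247 to 0.381 for the other 33 arrays. In bulk lung RNA, fewer cells of a type and less RNA per cell cannot be told apart.

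Of 24476 genes, 507 differed between the nanotubes (2.07%). Of these, 393 were higher with Mitsui-7 (1.61%) and 114 were higher with NM-403 (0.466%). The genes higher with Mitsui-7 included proteases that cut matrix (Mmp3, Mmp7, Mmp12), chemokines (Cxcl10, Cxcl11, Ccl9, Ccl11), mucus genes (Clca1, Muc5b, Agr2), basal keratins (Krt14, Krt17) and products of macrophages loaded with lipid (Spp1, Fabp4, Pla2g7). The genes higher with NM-403 included the acute-phase gene Orm1, the neutrophil genes S100a9 and Il1r2, and enzymes of xenobiotic metabolism (Cyp1a1, Cyp2a3, Gsta3). The acute-phase list was mixed, with 3 of 17 genes called higher with NM-403 and 2 called higher with Mitsui-7. Of 18 neutrophil genes, S100a9 and Il1r2 were the only 2 called. A fitted difference of at least 2-fold was found for 165 of the genes higher with Mitsui-7 and 16 of those lower. These counts include genes at background in the lower group, such as Mmp3 and Gcnt3, whose size of difference is uncertain. The median difference over all genes was 0.00. On 501 genes (2.05%) the 11 arrays fell into non-overlapping ranges, and 268 of the 507 called genes were among them. Both groups lay on 4 of the 5 slides. On every one of these 4, 501 of the 507 called genes differed in the same direction, against 25.7% of all genes. The calls were made from these same arrays with slide in the model. Agreement across slides was therefore favoured by the choice of genes and is no separate test.

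The count of 507 depended on which arrays entered the model. With only the 11 compared arrays in it, 119 genes were called, 111 higher and 8 lower with Mitsui-7 (93.3% higher, against 77.5% of the 507), and with no slide term 334 were called. The count was 320 without NM-403 replicate 1 and 333 without NM-403 replicate 3. With the 2 arrays that stood apart left out in turn it was 551 without control replicate 6 and 524 without WT Mitsui-7 replicate 5. Of 114 called genes examined, 80 stayed called in all 11 models that left out 1 of the compared arrays. With only the 11 compared arrays 71 of the 114 lost their call, and with only the 17 p53-heterozygous arrays 27 did. The losses with the 11 arrays are given below for the genes described. With another background correction (normexp with an offset of 50) 39 of these 114 differences shrank by more than 1.5 times, and the normexp value is given for those described below.

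**Figure D1:**
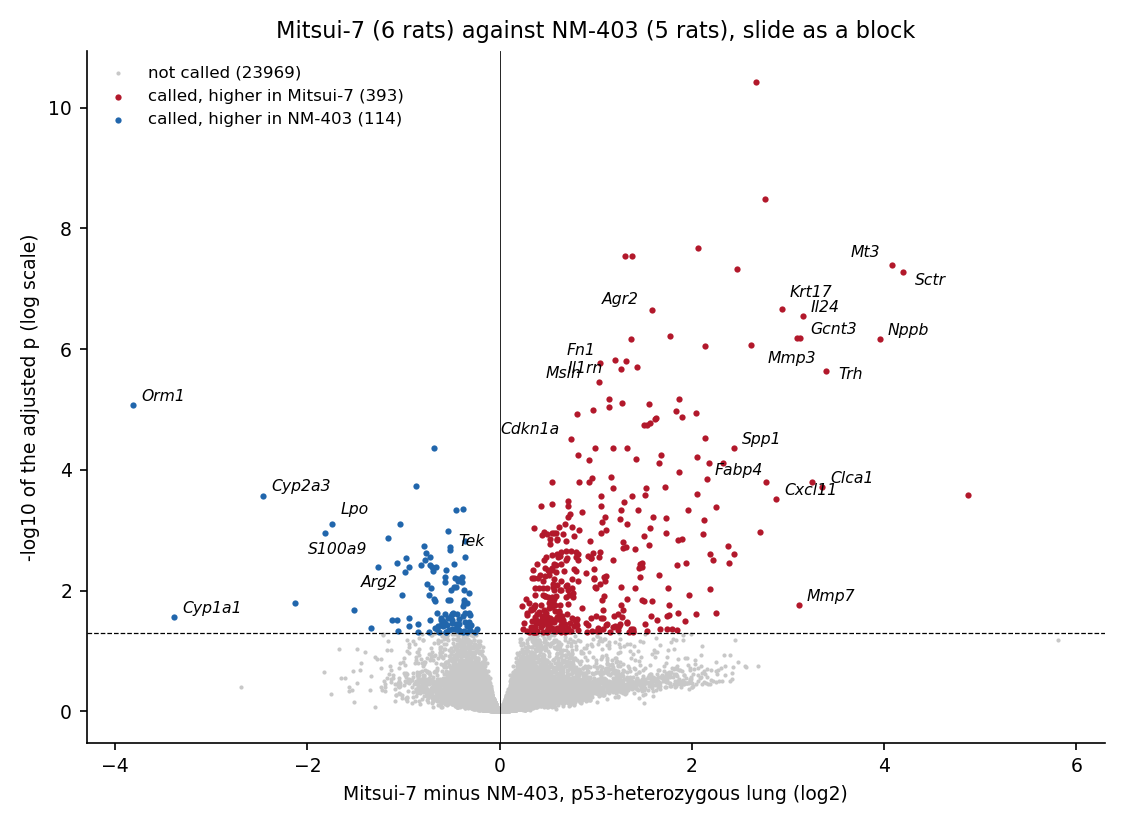
Log2 difference of each of 24476 genes between Mitsui-7 and NM-403 in p53-heterozygous lung (horizontal axis) against -log10 of limma's adjusted p (vertical axis), with the threshold of 0.05 dashed. Red points are the 393 genes called higher with Mitsui-7, blue points the 114 called higher with NM-403, and Orm1 and Cyp1a1 lie farthest to the NM-403 side.

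Promoters of 5 genes called higher with Mitsui-7 are shown. Stromelysin (Mmp3), matrilysin (Mmp7) and macrophage elastase (Mmp12) lie on one chromosome, and Cxcl10 and Cxcl11 on another. The 5 were picked from the called members of the protease and chemokine lists, and other called members are not shown. Mmp8, Mmp13 and Cxcl9, which are in the same lists, were not called. Each window is the 250 bases before the RefSeq start of the gene on the plus strand of rat build GRCr8: chr8:12925031-12925280 for Mmp3, chr8:13132793-13133042 for Mmp7, chr8:12866402-12866651 for Mmp12, chr14:15988816-15989065 for Cxcl10 and chr14:15973478-15973727 for Cxcl11. Capitals mark matches to the AP-1 letters TGANTCA, a palindrome, and to the interferon-response letters, which are GAAA, any 2 bases and GAAA, searched on both strands.
Mmp3 promoter: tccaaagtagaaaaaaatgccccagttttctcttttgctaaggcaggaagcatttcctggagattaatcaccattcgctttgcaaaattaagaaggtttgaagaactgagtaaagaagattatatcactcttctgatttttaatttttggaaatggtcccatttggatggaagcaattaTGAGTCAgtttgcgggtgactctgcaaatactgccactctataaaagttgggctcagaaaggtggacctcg
Mmp7 promoter: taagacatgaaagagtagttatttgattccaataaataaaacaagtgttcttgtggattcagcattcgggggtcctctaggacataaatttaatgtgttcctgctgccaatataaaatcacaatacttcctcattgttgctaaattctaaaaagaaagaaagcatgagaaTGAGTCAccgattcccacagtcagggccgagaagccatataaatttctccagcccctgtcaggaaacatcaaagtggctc
Mmp12 promoter: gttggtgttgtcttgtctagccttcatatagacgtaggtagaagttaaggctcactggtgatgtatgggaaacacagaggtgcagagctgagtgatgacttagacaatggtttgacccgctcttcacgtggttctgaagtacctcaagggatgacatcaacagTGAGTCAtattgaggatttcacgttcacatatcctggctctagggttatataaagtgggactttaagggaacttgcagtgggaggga
Cxcl10 promoter: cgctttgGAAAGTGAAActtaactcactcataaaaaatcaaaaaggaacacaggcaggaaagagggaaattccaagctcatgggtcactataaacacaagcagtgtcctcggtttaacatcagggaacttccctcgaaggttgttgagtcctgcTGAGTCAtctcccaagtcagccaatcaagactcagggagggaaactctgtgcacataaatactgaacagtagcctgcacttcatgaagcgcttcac
Cxcl11 promoter: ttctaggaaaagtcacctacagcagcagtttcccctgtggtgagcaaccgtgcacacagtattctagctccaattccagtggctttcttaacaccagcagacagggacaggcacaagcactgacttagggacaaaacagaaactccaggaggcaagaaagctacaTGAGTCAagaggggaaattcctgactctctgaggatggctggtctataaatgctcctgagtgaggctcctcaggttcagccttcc
The AP-1 letters occurred once in each of the 5 windows, every time as TGAGTCA. These 5 windows are all those with the letters among the called members of the 2 families. Finding the letters in each of them is therefore no test. Of the 6 called genes of the metalloproteinase list, 5 had an entry and 3 of these held the letters. Of the 8 called chemokines, 6 had one and 2 of these did. The AP-1 letters began 71 bases before the start in Mmp3, 80 in Mmp7, 87 in Mmp12, 96 in Cxcl10 and 85 in Cxcl11. The interferon-response letters occurred only in Cxcl10, as GAAAGTGAAA, 243 bases before the start. Of all 33469 rat windows of 250 bases in the RefSeq table, 6.34% held the AP-1 letters and 3.41% the interferon-response letters. Over the called genes, 260 of the 393 higher with Mitsui-7 had an entry, and 30 of these held the AP-1 letters (11.5%), while 79 of the 114 lower had one and 3 of these did (3.8%). Among all 24476 genes tested, 12807 had an entry and 4.93% of these held the letters. These matches describe letters in a window and were not tested as sites.

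Several matrix-degrading proteases were higher with Mitsui-7. Of 23 measured matrix metalloproteinases, relatives and inhibitors, 6 were called higher and none lower (median difference 0.26, against 0.00 for all genes; 0.09 with normexp). Mmp3, a stromelysin that opens proteoglycans and other proteases, was at -8.70, -8.34, -9.41, -8.01 and -9.49 in the 5 NM-403 lungs and from -6.35 to -4.96 (median -5.53) in the 6 Mitsui-7 lungs. The ranges did not overlap, and only 1 NM-403 array had the probe well above background. The fitted log2 difference was 3.09 ± 0.32 (adjusted p = 6.54e-07) and 0.50 with normexp, and no fold is given because the NM-403 side was mostly at background. Mmp7, the epithelial matrilysin, was at -5.76, -5.50, -5.26, -4.97 and -5.77 with NM-403 and from -2.83 to -0.99 (median -2.29) with Mitsui-7. Again no Mitsui-7 lung was as low as any NM-403 lung. Mmp7 differed by 3.11 ± 0.73 (8.63-fold, adjusted p = 0.0174; 1.89 with normexp), but it varied from -9.13 to -3.43 among vehicle lungs and its call was lost without NM-403 replicate 1 (2.91, adjusted p = 0.079) and with only the 17 p53-heterozygous arrays (adjusted p = 0.097). Mmp12, the macrophage elastase, was at -1.84, -0.90, -0.95, -1.33 and -0.998 with NM-403 and from 0.10 to 0.82 (median 0.42) with Mitsui-7. It differed by 1.56 ± 0.29 (2.94-fold, adjusted p = 0.00179), a call lost with only the 11 compared arrays (adjusted p = 0.0516), where 3 list members were called. The membrane protease Mmp14 (0.53), Adam12 (0.78) and the inhibitor Timp1 (0.81) were the other 3 called members. Timp1 lay between 0.89 and 1.43 with NM-403 and between 1.52 and 2.19 with Mitsui-7.

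The list mean of the 23 protease genes separated the groups. Relative to the mean of the vehicle lungs, it ran from 0.57 to 0.76 in the Mitsui-7 lungs and from -0.00315 to 0.21 in the NM-403 lungs. Against vehicle, in comparisons that share the 6 control arrays, Mmp3 differed by 3.14 with Mitsui-7 and 0.05 with NM-403, and Mmp12 by 3.65 and 2.10. Against vehicle 1 list member was called higher with NM-403, where 960 of all genes were called (3.92%; 2.23% higher and 1.7% lower). With Mitsui-7 8 were called higher and 2 lower, where 5518 of all genes were called (22.5%; 9.16% higher and 13.4% lower). The share of all calls against vehicle that were higher depended on the scaling. With Mitsui-7 it was 40.6% as reported and 49.7% to 54% with quantile normalization, normexp, array median scaling and the authors' values. With NM-403 the same alternatives gave 67% to 79.9%, against 56.8%.

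**Figure D2:**
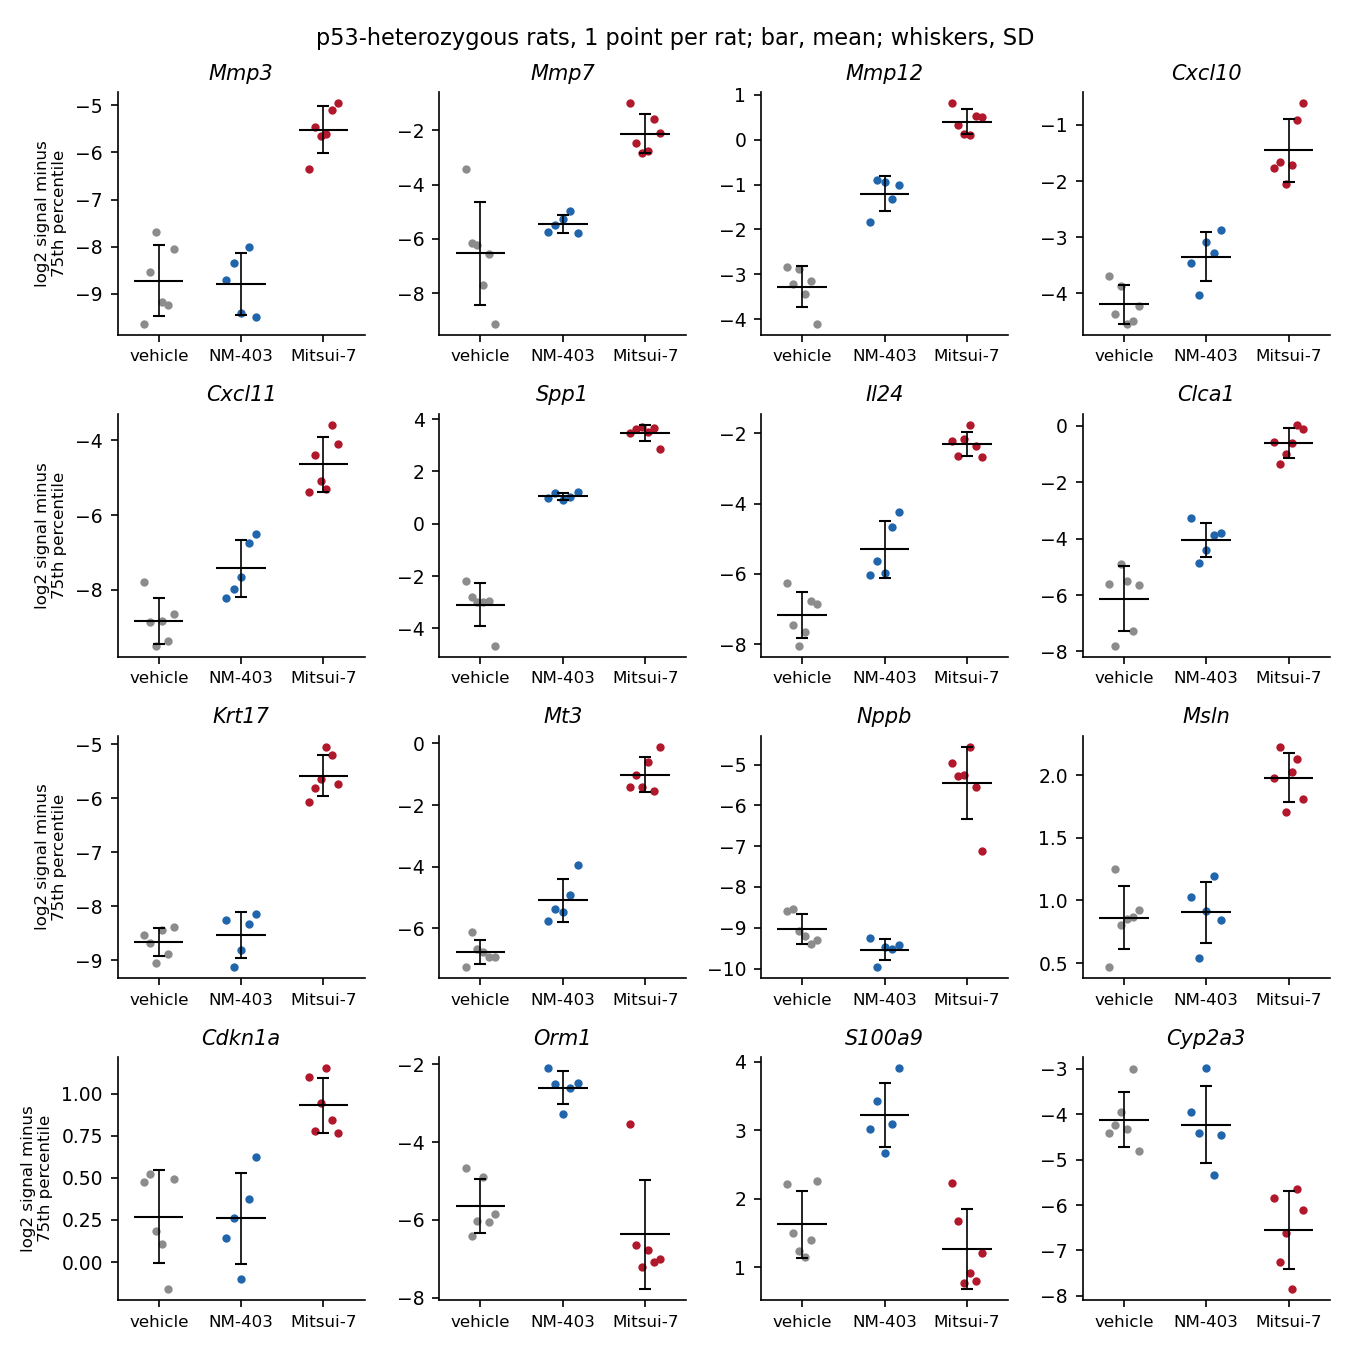
Level of 16 genes in each p53-heterozygous lung (vertical axes, log2 relative to the 75th percentile of the array) for vehicle (6), NM-403 (5) and Mitsui-7 (6); points are rats, bars are group means and whiskers SD. Mmp3, Cxcl11, Krt17 and Spp1 of every Mitsui-7 lung lie above every NM-403 lung, and S100a9 and Orm1 of every Mitsui-7 lung lie below.

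Genes of the matrix itself were also higher with Mitsui-7. Of 41 measured genes for extracellular matrix and its crosslinking, 13 were called higher with Mitsui-7 and none lower, and 37 had a positive difference (median 0.26). The count ran from 9 to 13 when 1 compared array was left out, and it was 9 without Mitsui-7 replicate 2 or without NM-403 replicate 4. Spp1, the secreted matrix and cytokine-like protein osteopontin, was at 0.99, 1.17, 0.89, 1.01 and 1.21 with NM-403 and from 2.85 to 3.70 (median 3.56) with Mitsui-7. Its vehicle levels ran from -4.66 to -2.18, so both nanotube groups stood far above vehicle and Mitsui-7 stood above NM-403. The difference between nanotubes was 2.44 ± 0.34 (5.41-fold, adjusted p = 4.42e-05). Thbs2, a thrombospondin, was at -4.40, -5.17, -4.68, -4.47 and -4.03 with NM-403 and from -3.39 to -2.21 (median -2.77) with Mitsui-7, a difference of 1.86 ± 0.23 (3.63-fold, adjusted p = 6.59e-06; 1.19 with normexp). Fibronectin Fn1 lay between 1.48 and 2.10 with NM-403 and between 2.77 and 3.20 with Mitsui-7 (1.04 ± 0.12, 2.06-fold, adjusted p = 1.7e-06). The NM-403 lungs overlapped the vehicle range of Fn1, 1.65 to 2.08. The large proteoglycan Vcan differed by 0.80, elastin Eln by 0.71, Tgfb1 by 0.41 and the collagens Col1a1, Col1a2 and Col3a1 by 0.63, 0.49 and 0.54. The Col1a1 call was lost without NM-403 replicate 4 (0.55, adjusted p = 0.0515) and with no slide term (adjusted p = 0.152), and the Eln call in 8 of 11 models (adjusted p up to 0.176). The Col1a2 call was lost with normexp (0.41, adjusted p = 0.0584). With only the 11 compared arrays 2 of the 41 genes were called, and Thbs2 (adjusted p = 0.0564), Vcan (0.134), Col1a1 (0.0889), Col1a2 (0.0551), Col3a1 (0.0973) and Eln (0.125) were not among them.

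Chemokines, which draw leukocytes out of the blood, were higher with Mitsui-7 for several members. Of 32 measured chemokine ligands, 8 were higher with Mitsui-7 and none lower (median 0.32). The count ran from 7 to 9 when 1 compared array was left out, and the median was 0.02 over the list members in the authors' own values. No chemokine was called with only the 11 compared arrays, where the adjusted p ran from 0.0516 for Cxcl13 to 0.27 for Ccl11 and was 0.115 for Cxcl10 and 0.0894 for Cxcl11. Cxcl10, a ligand of the receptor CXCR3 on activated T cells, was at -3.46, -4.02, -3.09, -3.29 and -2.87 with NM-403 and from -2.06 to -0.61 (median -1.68) with Mitsui-7. The groups did not overlap, and the difference was 1.86 ± 0.34 (3.63-fold, adjusted p = 0.00143). Cxcl11, a second CXCR3 ligand, was at -8.22, -7.97, -7.64, -6.74 and -6.50 with NM-403, where 2 arrays were above background, and from -5.39 to -3.59 (median -4.75) with Mitsui-7. It differed by 2.88 ± 0.46 (adjusted p = 0.000302) and by 0.74 with normexp. Ccl9, which attracts myeloid cells, lay between 0.51 and 1.59 with NM-403 and between 1.53 and 3.30 with Mitsui-7, so the ranges touched (1.503 ± 0.27, 2.83-fold, adjusted p = 0.00124). The eosinophil attractant Ccl11 was at 1.38, -1.52, -1.10, -0.71 and -0.75 with NM-403, so 1 rat stood with the Mitsui-7 lungs, which ran from 0.55 to 1.95. The Ccl11 difference of 1.75 ± 0.38 (adjusted p = 0.00906) turned negative on 1 of the 4 slides (-0.36), and the call was lost without NM-403 replicate 3 (1.54, adjusted p = 0.055). Against vehicle, Ccl11 was lower with NM-403 (-1.32, adjusted p = 0.0454) and not called with Mitsui-7 (0.44, adjusted p = 0.423). The other called ligands were Ccl24 (1.32; 0.66 with normexp), Cxcl13 (1.18), Ccl4 (1.11) and Ccl27 (0.54).

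Among 19 measured inflammatory cytokines and IL-1 family members, 2 were called higher and none lower. Il24, an IL-10 family cytokine that acts on epithelium, was at -6.02, -5.63, -5.97, -4.67 and -4.23 with NM-403 and from -2.66 to -1.76 (median -2.28) with Mitsui-7. It differed by 3.15 ± 0.31 (8.88-fold, adjusted p = 2.82e-07; 1.86 with normexp). Il1rn, the natural antagonist of the IL-1 receptor, lay between 0.61 and 1.20 with NM-403 and between 1.95 and 2.23 with Mitsui-7 (1.27 ± 0.14, 2.40-fold, adjusted p = 2.16e-06). The alarmin Il33 was not called (-0.04 ± 0.08, 95% interval from -0.21 to 0.12, adjusted p = 0.86), and its direction turned without NM-403 replicate 1 (0.04). None of 33 interferon-stimulated genes was called (median -0.01), nor any of 21 Toll-like receptor and inflammasome genes (median 0.06).

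Some genes of mucus were higher with Mitsui-7, while genes of club and other secretory cells went both ways. Of 23 measured genes of type 2 responses and mucous metaplasia, 4 were called higher and none lower (median 0.33; 0.13 with normexp). Clca1, a secreted goblet cell protein, was at -3.25, -4.86, -4.40, -3.88 and -3.81 with NM-403 and from -1.34 to 0.04 (median -0.60) with Mitsui-7 (3.36 ± 0.51, 10.2-fold, adjusted p = 0.000195). Muc5b, a gel-forming mucin, was above background on 1 of 5 NM-403 arrays and on all 6 Mitsui-7 arrays. It lay between -8.47 and -6.95 with NM-403 and between -4.54 and -3.53 with Mitsui-7 (fitted log2 difference 3.25 ± 0.49, adjusted p = 0.000157; 0.93 with normexp). Agr2, which folds mucins in the endoplasmic reticulum, lay between -2.58 and -2.27 with NM-403 and between -1.11 and -0.54 with Mitsui-7 (1.59 ± 0.16, 3.00-fold, adjusted p = 2.29e-07). The antimicrobial secretion Bpifb1 differed by 1.25 and was also higher than vehicle in both groups (3.33 with Mitsui-7, 2.08 with NM-403). Gcnt3, which branches mucin sugars, was above background on no NM-403 array and on all 6 Mitsui-7 arrays, at least 2.96-fold higher with Mitsui-7 (adjusted p = 6.54e-07; 0.34 with normexp). Retnla, a product of macrophages and epithelium in type 2 responses, was not called between the nanotubes (0.75 ± 0.37, adjusted p = 0.357), while it was higher than vehicle with each (3.22 and 2.47). Of 13 club and secretory cell genes, Muc5b, Bpifb1 and Lypd2 (0.81) were called higher, Cyp2a3 and Cyp2f4 lower, and 6 had a positive difference (median -0.04).

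Keratins and other genes of basal and injured epithelium followed the same order. Of 16 measured, 5 were called higher with Mitsui-7 and none lower, and 15 had a positive difference (median 0.35). Krt17, a keratin of basal and wounded epithelium, was above background on no NM-403 array and on all 6 Mitsui-7 arrays. It was at -8.26, -9.13, -8.81, -8.33 and -8.14 with NM-403 and from -6.06 to -5.04 (median -5.69) with Mitsui-7, which is at least 4.96-fold higher (adjusted p = 2.2e-07; 0.50 with normexp). Krt14, its basal cell relative, lay between -6.54 and -5.57 with NM-403 and between -5.05 and -3.53 with Mitsui-7 (1.86 ± 0.27, 3.64-fold, adjusted p = 0.00011; 0.78 with normexp). The tight junction gene Cldn4 differed by 1.05, Krt18 by 0.45 and Krt7 by 0.36. The Krt18 call was lost without NM-403 replicate 1 (0.40, adjusted p = 0.0537) and with no slide term (0.31, adjusted p = 0.443). Of 21 ciliated cell genes, 3 were called higher: Ccno (1.18), which drives the making of many centrioles, Dynlrb2 (0.52) and Foxj1 (0.46). The count fell to 1 without NM-403 replicate 1 or NM-403 replicate 2, and the Foxj1 call was lost in 6 of 11 models and with the mean of all probes (0.28, adjusted p = 0.143). None of the ciliated genes was called with only the 11 compared arrays, and Krt14 (adjusted p = 0.0746), Krt18 (0.155) and Lypd2 (0.135) lost their calls there too. Alveolar type 1 (14 measured) and type 2 (16 measured) genes had no calls, with medians of -0.01 and 0.01.

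Genes of the mesothelium, the lining of the pleura, gave a mixed count. Of 11 measured, 2 were higher with Mitsui-7 (Msln and Upk3b) and Prg4 was lower (median 0.50). Mesothelin, Msln, was at 1.02, 0.54, 0.91, 1.19 and 0.84 with NM-403 and from 1.71 to 2.23 (median 2.00) with Mitsui-7. It differed by 1.04 ± 0.12 (2.05-fold, adjusted p = 3.54e-06), and the NM-403 lungs lay within the vehicle range of 0.47 to 1.25. Upk3b lay between -4.94 and -4.52 with NM-403 and between -4.31 and -4.03 with Mitsui-7, where it overlapped vehicle (-4.35 to -3.81). It was lower than vehicle with NM-403 (-0.63, adjusted p = 0.00481), and its call between the nanotubes was lost without NM-403 replicate 1 or 3 (adjusted p up to 0.0577), with quantile normalization (adjusted p = 0.21) and with normexp (0.28, adjusted p = 0.164). The Prg4 call (-0.56) was lost in 8 of 11 models (adjusted p up to 0.195). Both calls were lost with only the 11 compared arrays (adjusted p = 0.0717 for Upk3b and 0.157 for Prg4). Itln1, which mesothelium and goblet cells secrete, ranged from -6.74 to 2.24 among Mitsui-7 lungs and was not called (5.81 ± 1.66, adjusted p = 0.0652). It was called without Mitsui-7 replicate 3 (7.06, adjusted p = 0.026) and without NM-403 replicate 2 (6.84, adjusted p = 0.0286).

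Genes of macrophages that handle lipid were higher with Mitsui-7. Of 25 measured, 7 were called higher and none lower, and 21 had a positive difference (median 0.49). Fabp4, a carrier of fatty acids, was at -2.62, -1.82, -1.62, -3.03 and -1.94 with NM-403 and from -0.41 to 0.19 (median -0.10) with Mitsui-7 (2.15 ± 0.32, 4.45-fold, adjusted p = 0.000141). Pla2g7, a phospholipase that clears oxidised lipid, lay between -2.32 and -0.61 with NM-403 and between -0.44 and 0.22 with Mitsui-7 (1.499 ± 0.20, 2.83-fold, adjusted p = 1.8e-05). Apoe differed by 0.71, the scavenger receptor Olr1 by 1.18 and the acid lipase Lipa by 0.57. Of 34 lysosome genes, 3 were called higher. Ctsk, a collagen-cutting cathepsin, was at 0.06, 1.38, 0.59, -0.66 and -0.23 with NM-403 and from 1.71 to 2.92 (median 2.36) with Mitsui-7 (2.06 ± 0.29, 4.15-fold, adjusted p = 6.07e-05). The calls of Lipa and Gla (0.30) were each lost without 1 array (NM-403 replicate 4 and replicate 1). With only the 11 compared arrays no lysosome gene was called and 4 of the 25 lipid-handling genes were: Ctsk (adjusted p = 0.121), Pla2g7 (0.0987), Apoe (0.0851), Lipa (0.196) and Gla (0.26) lost their calls. Trem2, a lipid receptor of macrophages, was higher than vehicle with each nanotube (1.67 and 0.97) but was not called between them (0.70 ± 0.27, adjusted p = 0.225). Cd5l, made by macrophages, was not called either (1.86 ± 0.62, adjusted p = 0.137), and was called without Mitsui-7 replicate 1 (2.29, adjusted p = 0.0329) and with array weights (2.01, adjusted p = 0.0226).

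Marker lists of leukocytes held few calls. Of 20 macrophage and monocyte genes (median 0.29), Itgam (1.32 ± 0.23, adjusted p = 0.000774) and Fcgr1a (0.55) were called higher and Car4, which lung endothelium also carries, lower. Mast cell genes had a median of 0.66, with 10 of 12 positive, and 1 call, the IgE receptor chain Ms4a2 (1.26). The Ms4a2 call was lost without Mitsui-7 replicate 3, NM-403 replicate 1 or NM-403 replicate 4. It was also lost with normexp (0.30, adjusted p = 0.145), quantile normalization (adjusted p = 0.0787) and only the 17 p53-heterozygous arrays (adjusted p = 0.0556). The mast cell list mean ran from 0.03 to 1.33 with Mitsui-7 and from -0.19 to 0.15 with NM-403. T cell genes had 2 calls in 21 (median -0.16), Il2ra (0.61; 0.39 with normexp) and Cd4 (0.46), both lost with no slide term and with the mean of all probes. The Cd4 call was also lost in 7 of 11 models, and that of Il2ra without NM-403 replicate 1 or 3 (adjusted p up to 0.105). None of 18 natural killer and cytotoxic lymphocyte genes was called, although 2 had a positive difference and the median was -0.37. Nor was any of 17 B cell (median -0.07), 13 plasma cell (0.01) or 5 eosinophil genes (-0.175). The calls of Fcgr1a and of the lectin Clec4a3 (0.56) were lost in 4 and 7 of 11 models, and Fcgr1a, Clec4a3, Car4, Il2ra and Cd4 lost theirs with only the 11 compared arrays (adjusted p from 0.08 to 0.287).

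**Figure D3:**
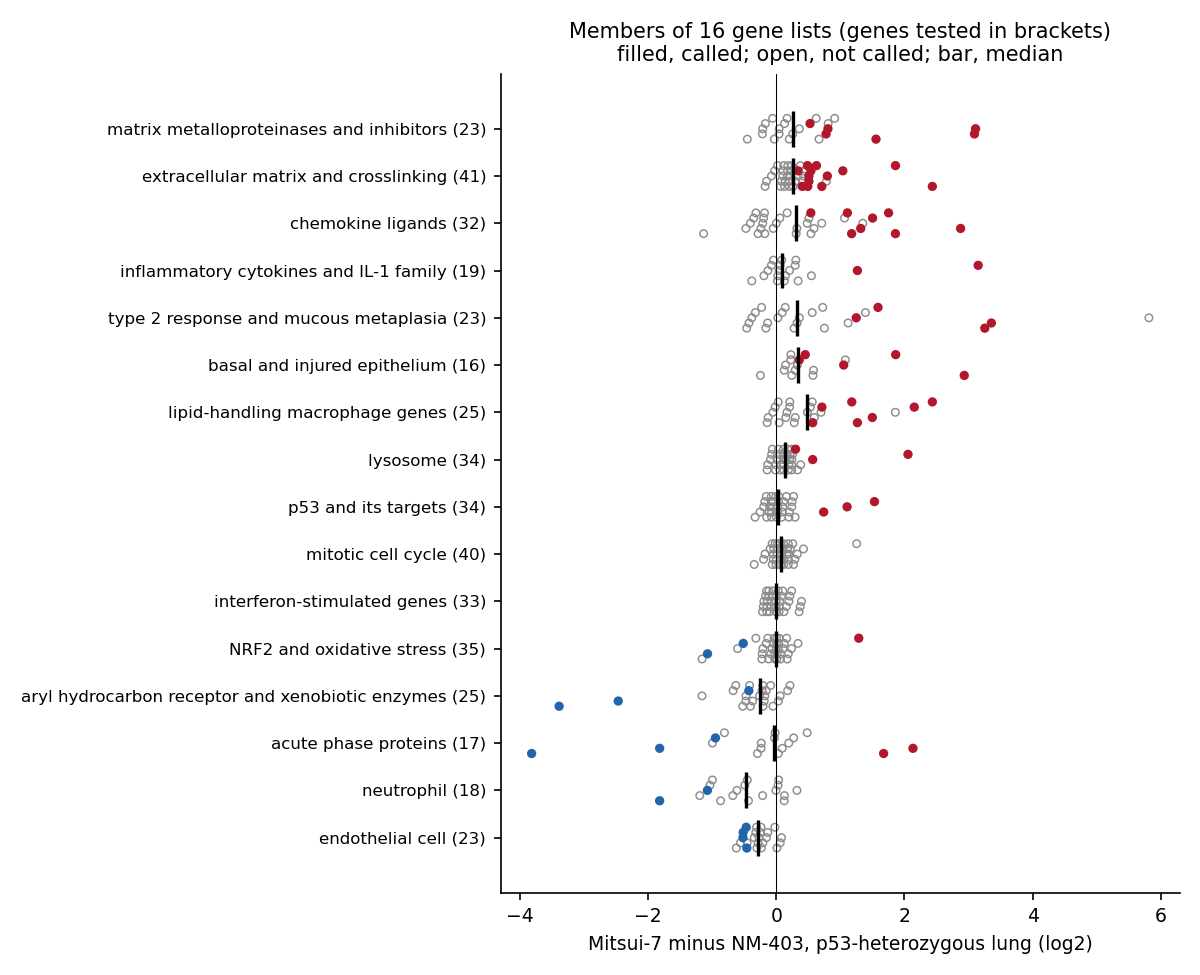
Log2 difference of each measured member of 16 gene lists between Mitsui-7 and NM-403 in p53-heterozygous lung (horizontal axis), with called members filled, uncalled members open and list medians as bars. Matrix, protease, chemokine, lipid-handling and basal epithelium lists have called members on the Mitsui-7 side, and the neutrophil, xenobiotic and endothelial lists on the NM-403 side.

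Neutrophil and acute-phase genes ran the other way for several members. S100a9, a calcium-binding protein abundant in neutrophils, was at 3.02, 3.43, 2.67, 3.10 and 3.91 with NM-403 and from 0.77 to 2.23 (median 1.06) with Mitsui-7. The vehicle lungs ran from 1.16 to 2.26, so NM-403 stood above vehicle (1.52, adjusted p = 0.00517) and Mitsui-7 overlapped it (-0.30, adjusted p = 0.532). Between the nanotubes S100a9 differed by -1.82 ± 0.32 (3.53-fold higher with NM-403, adjusted p = 0.0011). With only the 11 compared arrays it differed by -1.88 and was not called (adjusted p = 0.109). Il1r2, the decoy IL-1 receptor of neutrophils, differed by -1.07 ± 0.27 (adjusted p = 0.0305), a call lost in 6 of 11 models, with no slide term and with only the 11 compared arrays (adjusted p = 0.281). These were the 2 calls among 18 neutrophil genes (median -0.47; -0.12 with normexp, and -0.000672 within slide 3). Their list mean ran from -0.72 to 0.33 with Mitsui-7 and from -0.08 to 0.63 with NM-403, so the groups overlapped. S100a8, the partner of S100a9, was not called (-0.996, adjusted p = 0.13), and Lcn2 missed the threshold (-0.81, adjusted p = 0.0516) and was called under 7 alternatives, with values from -0.93 to -0.72.

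Orm1, the acute-phase plasma protein orosomucoid, was at -2.11, -2.51, -3.29, -2.61 and -2.49 with NM-403. In the Mitsui-7 lungs it was at -3.53 in 1 rat and between -7.20 and -6.64 in the other 5. The difference was -3.82 ± 0.47 (14.1-fold higher with NM-403, adjusted p = 8.32e-06; -1.83 with normexp). The Orm1 call was lost with only the 11 compared arrays (-3.86, adjusted p = 0.0805). Against vehicle, Orm1 was higher with NM-403 (2.99, adjusted p = 0.000287) and not called with Mitsui-7 (-0.82, adjusted p = 0.194). Of 17 acute-phase genes, Orm1, S100a9 and the haem carrier Hpx (-0.95) were lower with Mitsui-7, and the protease inhibitors A2m (2.13 ± 0.23, adjusted p = 8.84e-07) and Serpina3n (1.68 ± 0.24, adjusted p = 5.76e-05) were higher (median -0.03). A2m lay between -6.22 and -5.34 with NM-403 and between -4.05 and -2.48 with Mitsui-7. Normexp gave 1.13 for A2m, and the mean of all probes gave 1.06 for Serpina3n. The Hpx call was lost in 5 of 11 models, with normexp (-0.56, adjusted p = 0.0592) and with only the 11 compared arrays (adjusted p = 0.255). Lactoperoxidase Lpo, an airway antimicrobial enzyme, was lower with Mitsui-7 (-1.74 ± 0.30, 3.34-fold, adjusted p = 0.000796).

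Several enzymes of xenobiotic metabolism were lower with Mitsui-7. Of 25 measured genes of the aryl hydrocarbon receptor and xenobiotic list, 3 were called lower and none higher, and 4 had a positive difference (median -0.26). Cyp2a3, a cytochrome P450 of the airway, was at -3.96, -4.41, -2.99, -5.33 and -4.46 with NM-403 and from -7.85 to -5.64 (median -6.37) with Mitsui-7 (-2.46 ± 0.39, 5.52-fold, adjusted p = 0.000267; -0.92 with normexp). The NM-403 lungs overlapped the vehicle range of -4.80 to -3.01. Cyp1a1, the classical target of the aryl hydrocarbon receptor, was above background on all 5 NM-403 arrays and on no Mitsui-7 array, at least 4.02-fold higher with NM-403 (adjusted p = 0.0274). It varied from -7.95 to -5.19 among vehicle lungs, its call was lost in 9 of 11 models (adjusted p up to 0.1) and normexp gave -0.69 (adjusted p = 0.0761). The club cell enzyme Cyp2f4 (-0.43) lost its call in 8 of 11 models and with only the 11 compared arrays (adjusted p = 0.147). Of all 53 measured genes with a cytochrome P450 symbol, a group chosen after its values were seen, 5 were called lower and Cyp7b1 (0.61) higher, and 25 had a positive difference (median -0.02). The list had 1 call without Mitsui-7 replicate 2, 3 or 4 or NM-403 replicate 1, 2 or 3. Of 35 genes of the NRF2 oxidative-stress response, the cystine transporter Slc7a11 was higher (1.29 ± 0.31, adjusted p = 0.0209) and the glutathione transferases Gsta1 (-0.51) and Gsta3 (-1.07; -0.655 with normexp) were lower with Mitsui-7 (median 0.00). Normexp gave 0.71 for Slc7a11, and none of the 3 was called with only the 11 compared arrays (adjusted p from 0.104 to 0.156). The Slc7a11 call was lost without Mitsui-7 replicate 2, Mitsui-7 replicate 4 or NM-403 replicate 1 and with no slide term (1.15, adjusted p = 0.0549).

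Endothelial genes were lower with Mitsui-7 in small steps. Of 23 measured, 4 were called lower and none higher, and 20 had a negative difference (median -0.28; -0.08 within slide 1). Tek, the angiopoietin receptor, lay between 2.28 and 2.57 with NM-403 and between 1.35 and 1.99 with Mitsui-7 (-0.52 ± 0.10, 1.43-fold, adjusted p = 0.00216). Car4, of lung capillaries, differed by -0.52, Ramp2 by -0.47 and Clec14a by -0.46. Without NM-403 replicate 1 the list had 1 call, since Car4 (adjusted p = 0.106), Ramp2 (0.0643) and Clec14a were lost, and the Clec14a call was lost in 8 of 11 models. None of the 4 was called with only the 11 compared arrays (adjusted p from 0.121 to 0.287). The list mean, relative to vehicle, ran from -0.83 to -0.35 with Mitsui-7 and from -0.33 to -0.09 with NM-403. Esm1, a secreted endothelial proteoglycan, differed by -1.51 ± 0.36 (adjusted p = 0.0208), a call lost in 4 of 11 models and with only the 11 compared arrays (adjusted p = 0.156).

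Of 34 measured genes of p53 and its targets, 3 were called higher with Mitsui-7 and none lower (median 0.02). Cdkn1a, the inhibitor of cyclin-dependent kinases, was at 0.14, 0.26, -0.10, 0.37 and 0.62 with NM-403 and from 0.76 to 1.15 (median 0.89) with Mitsui-7. It differed by 0.74 ± 0.10 (1.67-fold, adjusted p = 3.04e-05), and the NM-403 lungs overlapped the vehicle range of -0.16 to 0.52. Sfn, the epithelial 14-3-3 protein, differed by 1.53 ± 0.20 (2.89-fold, adjusted p = 1.8e-05). Neither was called with only the 11 compared arrays (adjusted p = 0.0711 for Cdkn1a and 0.0894 for Sfn), nor was any other gene of the list. Mdm2 (0.10 ± 0.07, adjusted p = 0.53) and Ccng1 (0.09 ± 0.10, adjusted p = 0.739) were not called. None of 40 mitotic genes was called between the nanotubes (median 0.07), although 34 were higher than vehicle with Mitsui-7 and 31 with NM-403 (medians 0.99 and 0.93, with shared control arrays). Mki67, the proliferation antigen, differed by 0.04 ± 0.12 (95% interval from -0.21 to 0.29), and Aurkb by 1.25 ± 0.38 (adjusted p = 0.087; 1.44, adjusted p = 0.00756 with array weights). None of 36 replication and repair genes was called (median -0.05).

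The largest differences by size included genes of peptide signals that were not above background in vehicle lungs. Sctr, the secretin receptor, was above background on all 6 Mitsui-7 arrays and on no NM-403 or vehicle array. It was at -9.25, -9.996, -8.47, -9.66 and -9.07 with NM-403 and from -5.73 to -4.04 (median -5.24) with Mitsui-7, at least 6.92-fold higher (adjusted p = 5.34e-08; 0.77 with normexp). Trh, thyrotropin-releasing hormone, was at least 5.55-fold higher (adjusted p = 2.28e-06; 0.61 with normexp). Nppb, the natriuretic peptide BNP, was above background on 5 of 6 Mitsui-7 arrays and no NM-403 array, at least 5.40-fold higher (adjusted p = 6.83e-07; 0.70 with normexp). Mt3, a metallothionein best known from brain, was at -5.75, -5.38, -5.47, -4.91 and -3.94 with NM-403 and from -1.53 to -0.10 (median -1.21) with Mitsui-7. It differed by 4.08 ± 0.36 (17.0-fold, adjusted p = 4.06e-08), and it was also higher than vehicle with NM-403 (1.65, adjusted p = 0.00701).

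Markers of tissues that a dissected lobe could carry were read beside these genes. Of 20 cardiac muscle genes, Nppb was the only one called higher, Lrrc10 was called lower (-1.13, lost in 7 of 11 models, with normexp at -0.20 and adjusted p = 0.0536, and with only the 11 compared arrays) and 18 had a negative difference (median -0.49). The cardiac list mean ran from -0.93 to -0.25 with Mitsui-7 and from -0.79 to -0.11 with NM-403. Of 11 adipocyte genes Fabp4 was the only call, 8 had a positive difference (median 0.675), and the list mean ran from 0.12 to 2.25 with Mitsui-7, with replicate 6 at 2.25 and the next at 0.78, and from -0.32 to 0.51 with NM-403. Adipoq reached -1.15 in Mitsui-7 replicate 6 and lay between -4.56 and -3.60 in the other 5. Without that replicate Fabp4 differed by 2.18 (adjusted p = 0.000297). Whether adipose tissue contributed to the Fabp4 difference was not tested. Of 11 erythroid genes none was called (median -0.41).

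**Figure D4:**
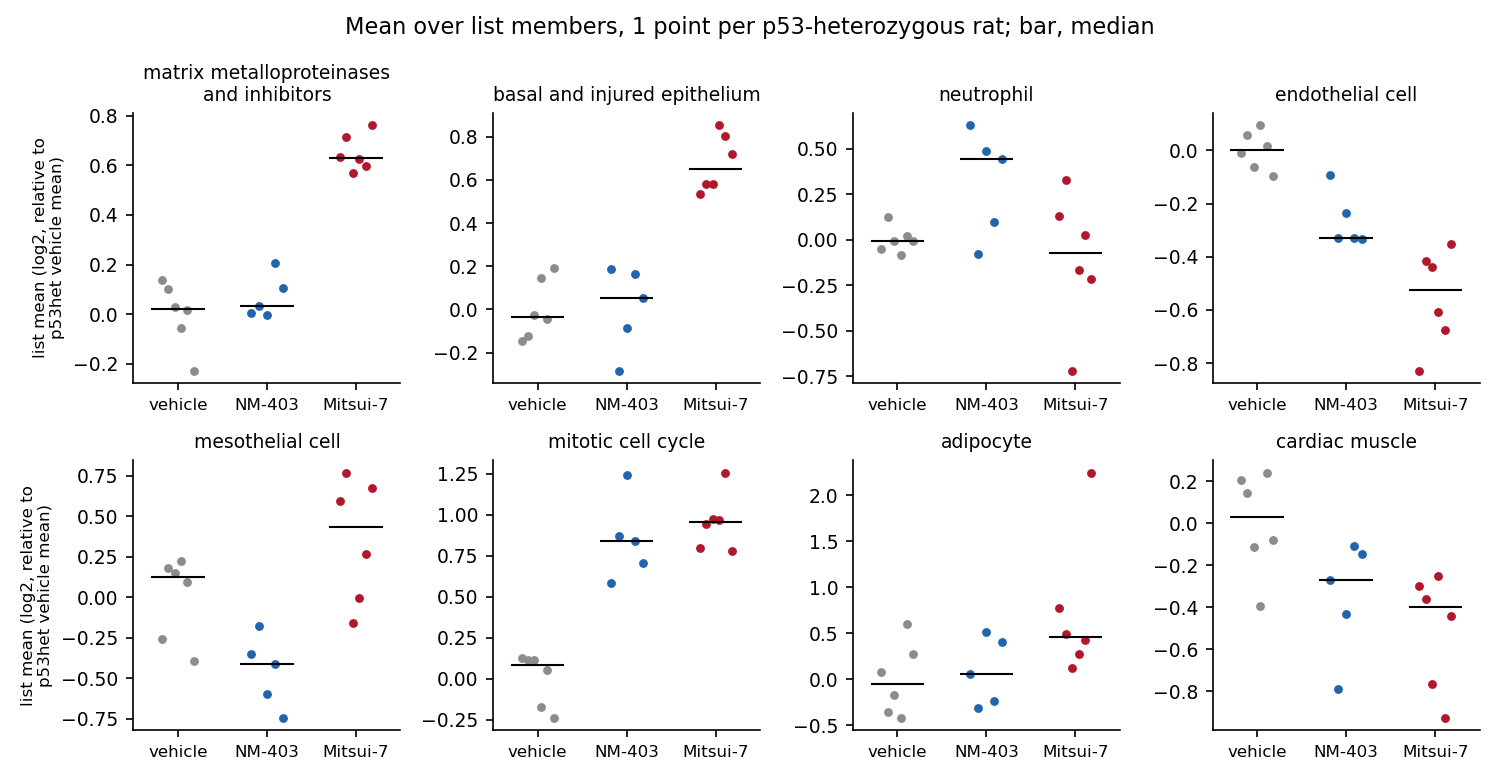
Mean log2 level of the measured members of 8 gene lists in each p53-heterozygous lung relative to the mean of the 6 vehicle lungs (vertical axis), for vehicle, NM-403 and Mitsui-7; points are rats and bars medians. The protease and basal epithelium lists of every Mitsui-7 lung (0.57 to 0.76 and 0.54 to 0.85) lie above every NM-403 lung, and the neutrophil list overlaps.

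The same pair of nanotubes was compared in WT rats, on other arrays but in the same model, to see how far the p53-heterozygous differences recur. The 2 comparisons share each gene's estimate of spread and the slide terms. A gene with a small spread is therefore favoured to be called in both. In WT 1538 genes were called (6.28%), 1110 higher (4.54%) and 428 lower (1.75%) with Mitsui-7. Without WT Mitsui-7 replicate 5, an array that stood apart, the WT count was 1059, with 764 higher and 295 lower. The share of WT calls that were higher depended on the scaling. It was 72.2% as reported, 56.6% with quantile normalization and 57.5% with normexp. With the authors' own values it was 35.8%, and with scaling to the array median 32.8%. In p53-heterozygous lung the same 4 alternatives gave 73.5% to 76.2%, against 77.5%. Of the 507 genes called in p53-heterozygous lung, 496 had the same direction in WT (97.8%, against 67.9% of all genes), 365 were also called there (72.0%) and 0 were called in the opposite direction. These 365 were 23.7% of the WT calls. Medians of the difference were also taken, signed by the direction in the genotype that called the genes. In the 507 genes the median was 0.72 in p53-heterozygous and 0.68 in WT lung. Over the genes called in WT it was 0.59 in WT and 0.32 in p53-heterozygous lung. The choice of genes favours a larger median in the genotype that called them. These medians therefore do not test whether the genotypes differ. Mmp3 differed by 4.10 in WT, Cxcl10 by 2.86, Spp1 by 2.22, Clca1 by 4.01, Cdkn1a by 0.59 and S100a9 by -2.69, all called. Mmp7 (2.19, adjusted p = 0.0572), Cyp1a1 (-1.61, adjusted p = 0.236), Nppb (1.06, adjusted p = 0.113) and Cyp2a3 (-1.16, adjusted p = 0.0586) were not called in WT.

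The test of the difference between genotypes, the interaction of genotype and nanotube, called 0 genes by limma, with 1198 at an unadjusted p under 0.05 (4.89%). Ccl27, a chemokine of epithelium, came nearest to the threshold: it differed by 0.54 in p53-heterozygous and by -0.19 in WT lung (limma, adjusted p = 0.188). Nppb followed (3.95 against 1.06, adjusted p = 0.347). Ccl27 was called with the authors' own values (0.77, adjusted p = 0.00912). With array weights Ccl27 (0.78, adjusted p = 0.0231), Nppb (3.49, adjusted p = 0.00659) and Fam25a (1.35, adjusted p = 0.0465) were called. The median of the 33 interferon-stimulated genes was -0.01 in p53-heterozygous and 0.34 in WT lung, with 0 and 7 called higher and 0 called in the interaction. For the 11 mesothelial genes the medians were 0.50 and -0.11, again with 0 interaction calls.

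**Figure D5:**
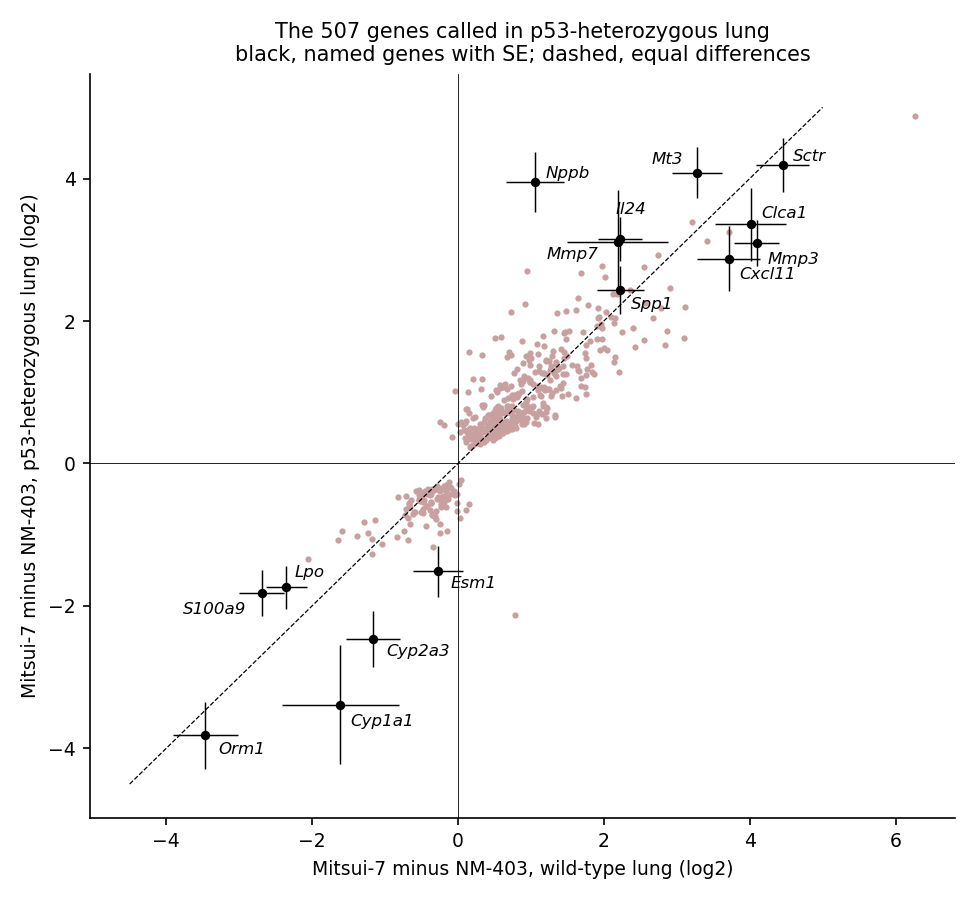
Log2 difference between Mitsui-7 and NM-403 of the 507 genes called in p53-heterozygous lung: p53-heterozygous rats (vertical axis) against WT rats (horizontal axis), with SE bars for named genes and a dashed line of equality. Of the 507 points 496 have the same sign in both, and Nppb lies at 3.95 against 1.06.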

How the data were processed

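RNA of the accessory lung lobe of 35 rats was measured on 35 single-colour Agilent rat arrays, 1 rat per array. The deposited intensity values are the processed signals of Agilent Feature Extraction 12.0.1.1, background-subtracted on a linear scale per the file headers and the submitters' processing notes. The authors also deposited log2 values for 11555 probes, centred per probe, which were used as an alternative (correlation with centred scanner values 0.995 to 0.999 per array).

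Control spots and outlier spots were left out, signals were taken as log2 minus each array's 75th percentile, spots of a probe were averaged, and each gene kept its brightest probe by mean over all arrays (the mean of all probes is an alternative). Genes well above background on at least 5 of the 35 arrays, whatever their group, and measured on at least 3 arrays of every group were tested. All 35 arrays were fitted with group means and slide as a fixed block in limma 3.58.1 (R 4.3.3), with Benjamini-Hochberg adjustment over 24476 genes and a threshold of 0.05. Residuals correlated at a mean of 0.222 between arrays that shared a slide and of -0.0815 between others. Slide 2 held Mitsui-7 but no NM-403 arrays of p53-heterozygous rats. The number of arrays limits the precision.

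For a gene above background on no array of the dimmer group, a fold is given as a bound. It sets the mean of the brighter group against the mean, over the dimmer arrays, of the higher of the probe's own value and the lowest signal among probes well above background. The rule for named genes took the 10 largest called differences at each end, up to 4 called members of each of 42 lists, and a set of fixed names. Other members of counts, and 44 further genes (among them Apoe, Olr1, Ccl4, Ccl24, Ccl27, Col1a1, Eln, Hpx, Itln1 and Adipoq), were chosen after their values were seen. The comparison, members and lists were chosen with earlier results of these data known. Leaving out control replicate 6 or WT Mitsui-7 replicate 5 was added after seeing the data. Alternatives changed the slide term, normalization, background correction, filter, probe rule, weights and arrays in the model. Promoter windows came from the RefSeq table of build GRCr8. Some measured genes are not reported here.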

Additional observations from a re-analysis of the deposited data

Results flagged for a closer look

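An array far from the others of its group was found in 18 of 254 tests of a gene in a group and in 7 of 84 tests of a list mean. The measure is the gap to the nearest array over the range of the group, and chance gives about 1 in 20. Among Mitsui-7 lungs, replicate 1 was highest for Orm1 (-3.53, next -6.64, gap 0.848) and Lpo (-2.51, gap 0.636), lowest for Cd5l (-7.57, gap 0.751) and lowest for the eosinophil list (gap 0.685). Replicate 3 was lowest for Col1a1 (2.31, next 3.41, gap 0.798), Mt2A (gap 0.724), Ido1 (gap 0.663) and the metallothionein list (gap 0.667). Replicate 4 was highest for Apoe (gap 0.706) and Noxa1 (gap 0.626). Replicate 5 was highest for Clec4a3 (gap 0.685) and Cybb (gap 0.633) and lowest for the B cell list (gap 0.631).

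Mitsui-7 replicate 6 was highest for Adipoq (-1.15, next -3.60, gap 0.718), for the adipocyte list (gap 0.690) and for Cyp1a1 (gap 0.735). It was lowest for Spp1 (2.85, next 3.46, gap 0.724), Ccl4 (gap 0.658), Trem2 (gap 0.631) and the complement list (gap 0.656). Among NM-403 lungs, replicate 1 was highest for Ccl11 (1.38, next -0.71, gap 0.718) and lowest for Mki67 (gap 0.783). Replicate 3 was lowest for Eln (gap 0.786), replicate 4 for the plasma cell list (gap 0.877) and replicate 2 for the ciliated list (gap 0.738). What set these arrays apart was not tested.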

How the results depend on the processing

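Of 3370 pairs of a named gene and an alternative, 3023 kept their direction and their side of the threshold, 323 lost the call, 20 gained one and 4 turned direction. Of 114 called genes, 40 kept their call under every alternative that measured them and 0 turned direction. The turned values were those of uncalled genes: Mki67 with no slide term (-0.0836), and Mki67 and Il33 over the models without 1 array, which ran from -0.0485 to 0.163 and from -0.102 to 0.0387.

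Between the nanotubes in p53-heterozygous lung, 507 genes became 334 with no slide term (316 shared), 297 with the authors' values, where 9803 genes could be tested, 1693 with array weights, 119 with only the 11 compared arrays (111 higher and 8 lower), 321 with only the 17 p53-heterozygous arrays and 321 at 1.5-fold or more. Leaving out 1 compared array gave 320 to 622. In WT, 1538 became 813 with no slide term, 2615 with array median scaling, 2444 with array weights and 1059 without WT Mitsui-7 replicate 5. The interaction gave 1 gene with the authors' values and 3 with array weights. Against vehicle, Mitsui-7 gave 2832 with no slide term and 3172 with the authors' values, against 5518. NM-403 gave 373, 1468 with array weights and 615 with the 17 arrays, against 960. The cause was not tested, apart from the fewer arrays or genes named.

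With the replicate number as a block beside slide, 462 genes were called (407 shared), and the calls of Lrrc10, Cyp2f4, Angptl4, Il2ra, Clec14a, Prg4, Foxj1, Gstm2 and Hpx were lost. The numbers do not pair the rats: same-numbered residuals correlated from -0.327 to 0.221 over 5 pairs, and 1 of 5 Mitsui-7 arrays correlated best with its own number. The eosinophil list could not be computed from the authors' values. Low signal over background limits the size of the differences of dim genes.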

Other observations

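The genes below were chosen after their values were seen, and the values are descriptions. Prss22, a secreted airway serine protease, had the lowest adjusted p between the nanotubes. It was at -4.59, -5.44, -4.58, -4.77 and -5.25 with NM-403 and from -2.69 to -1.47 with Mitsui-7 (2.67 ± 0.16, limma adjusted p = 3.79e-11). Prss30 (1.63) and the plasminogen activator Plau (1.00) were also higher with Mitsui-7. So were the sensory peptide gene Calcb (2.76), the tachykinin receptor Tacr1 (1.66; 0.24 with normexp) and the activin subunit Inhba (2.06). In the same group of peptide and receptor genes, the VIP receptor Vipr1 (-0.71) and the islet peptide Iapp (-0.95; -0.55 with normexp) were called lower. The mucous cell stress sensor Ern2 differed by 2.47 (1.09 with normexp), the water channel Aqp3 by 2.61 (1.47), and the gap junction genes Gjb2 and Gjb6 by 1.14 and 1.05 (0.26 for Gjb6). The oxidase genes Noxa1 (1.38), Duox2 (2.44; 0.50 with normexp) and Cybb (0.80) were higher, and the Cybb call was lost in 6 of 11 models that left out 1 array. Foxn4 (2.14; 1.32 with normexp), Deup1 (1.32; 0.74) and Plk4 (0.69; 0.40), which act in the making of centrioles and cilia, were higher with Mitsui-7. With only the 11 compared arrays the calls of Plau, Tacr1, Vipr1, Iapp, Duox2 and Cybb were lost (adjusted p from 0.0511 to 0.16).

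Glutathione transferases ran the other way. The count took symbols made of Gst, a letter among a, k, l, m, p, t and z, and a number, and left out transferases with other symbols. Of 16 measured, 5 were called lower with Mitsui-7 and none higher, and 1 had a positive difference (median -0.24, against 0.00 for all genes). Gstm7 was at -3.08, -3.38, -3.20, -3.23 and -3.45 with NM-403 and from -4.68 to -3.63 with Mitsui-7 (-0.87 ± 0.13, limma adjusted p = 0.000183; -0.55 with normexp). Gsta3 and Gsta1 differed by -1.07 and -0.51. The calls of Gstm2 (-0.41) and Gstk1 (-0.34) were lost in 9 and 3 of 11 models. The neutrophil surface gene Cd177 (-1.01), Lrg1 (-0.47) and the channel Aqp9 (-0.68) were also higher with NM-403. None of these 3 and none of the 5 transferases was called with only the 11 compared arrays (adjusted p from 0.0642 to 0.211).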
